A study of Caenorhabditis elegans with 205 samples.

Results

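The Caenorhabditis elegans globin family was taken as every gene of the deposited count table whose identifier maps to a WormBase symbol made of glb- and a number. This rule found 34 genes, glb-1 to glb-34, among the 46927 genes of the table. All 34 are annotated as protein coding, and their summed exon lengths run from 594 to 1886 bases. They are spread over the chromosomes, with 3 on I, 7 on II, 3 on III, 6 on IV, 10 on V and 5 on X. Together the 34 genes hold 760512 counts.

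Globins are small proteins that fold around a heme group, whose iron can bind gases such as oxygen or pass on electrons. Vertebrates use them mainly to carry and store oxygen, while the nematode has a large set of globins, many of them read in neurons. Known worm globins include GLB-5, which tunes the response of oxygen-sensing neurons, GLB-6, which passes on electrons rather than binding oxygen when studied as a purified protein, and GLB-12, which generates superoxide in a signal from the somatic gonad to the germ line. GLB-33 joins a globin domain to a domain that resembles a neuropeptide receptor.

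The study counted RNA in libraries of neurons sorted by fluorescence, from 53 neuron classes. The worms were grown on nutrient agar seeded with E. coli, the 180 libraries that carry a treatment label are labelled untreated, and the strain, the reporter transgene, the genotype and the age of the worms are not given in the sources used here. Each class had 2 to 6 libraries. The classes are the only groups, and the questions asked here are in which classes each globin is high, whether the 17 classes with a sensory cilium (ADL, AFD, ASEL, ASER, ASG, ASI, ASK, AWA, AWB, AWC, BAG, CEP, IL1, IL2, OLL, OLQ and PHA) differ from the 36 others, and which globins differ within the pairs ASEL and ASER, AWB and AWC, and SMB and SMD.

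Total counts per library ran from 798303 to 24647021, with a median of 4692492, and ribosomal RNA took 9.77% to 79.2% of them. Levels are given as CPM, counts per 1000000 counts of the scaled library size. A count of 3, the most that a count of 0 leaves possible, was worth 0.643 CPM in the median library and 6.37 CPM in AIYr67, the shallowest. Of the 78 pairs of a class and a marker gene checked, 77 had the marker called higher in its class than the mean of the other classes. Such a call did not always mean a high level or rank. In ASI, str-3 had 0.980 CPM with 1 library at 0, and VC and AVG ranked 10 for their only markers, lin-11 and odr-2. The exception was eat-4, the vesicular glutamate transporter, in LUA, and PVP and AVE had no marker on the list. Summed markers of 9 non-neuronal tissues and cell types had class medians of 614 to 6244 CPM in ciliated classes and 1179 to 31630 CPM in the others, with HSN the highest. Because the labels do not say whether libraries of a class came from separate cultures, p-values measure only the spread between these libraries. In sorted bulk samples, fewer cells of a type and less RNA per cell cannot be told apart.

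All 34 globins passed the filter on low counts, and 33 of them (97.1%) differed among the 53 classes by edgeR's quasi-likelihood test at an adjusted p under 0.05. The share over all 20427 genes tested was 95.5%, so the count itself sets the globins little apart from other genes. The exception was glb-26, with an adjusted p of 0.118. GLB-26 is known as a globin held at the membrane by lipid anchors. Its exons overlap those of T22C1.1 on the opposite strand over 648 of their 791 bases, and whether counting used strand is not stated.

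The 34 globins did not share one pattern. As the heat map of class means shows, 19 different classes were the highest class of at least one globin, 10 globins had a mean of at least 10 CPM in at most 5 classes, and 3 had it in at least 50. Over the family, the number of classes with a mean of at least 10 CPM ran from 0 to 52 with a median of 16. The highest class was ciliated for 19 globins and not ciliated for 15. In 27 globins the median class mean was under 10 CPM.

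**Figure D1:**
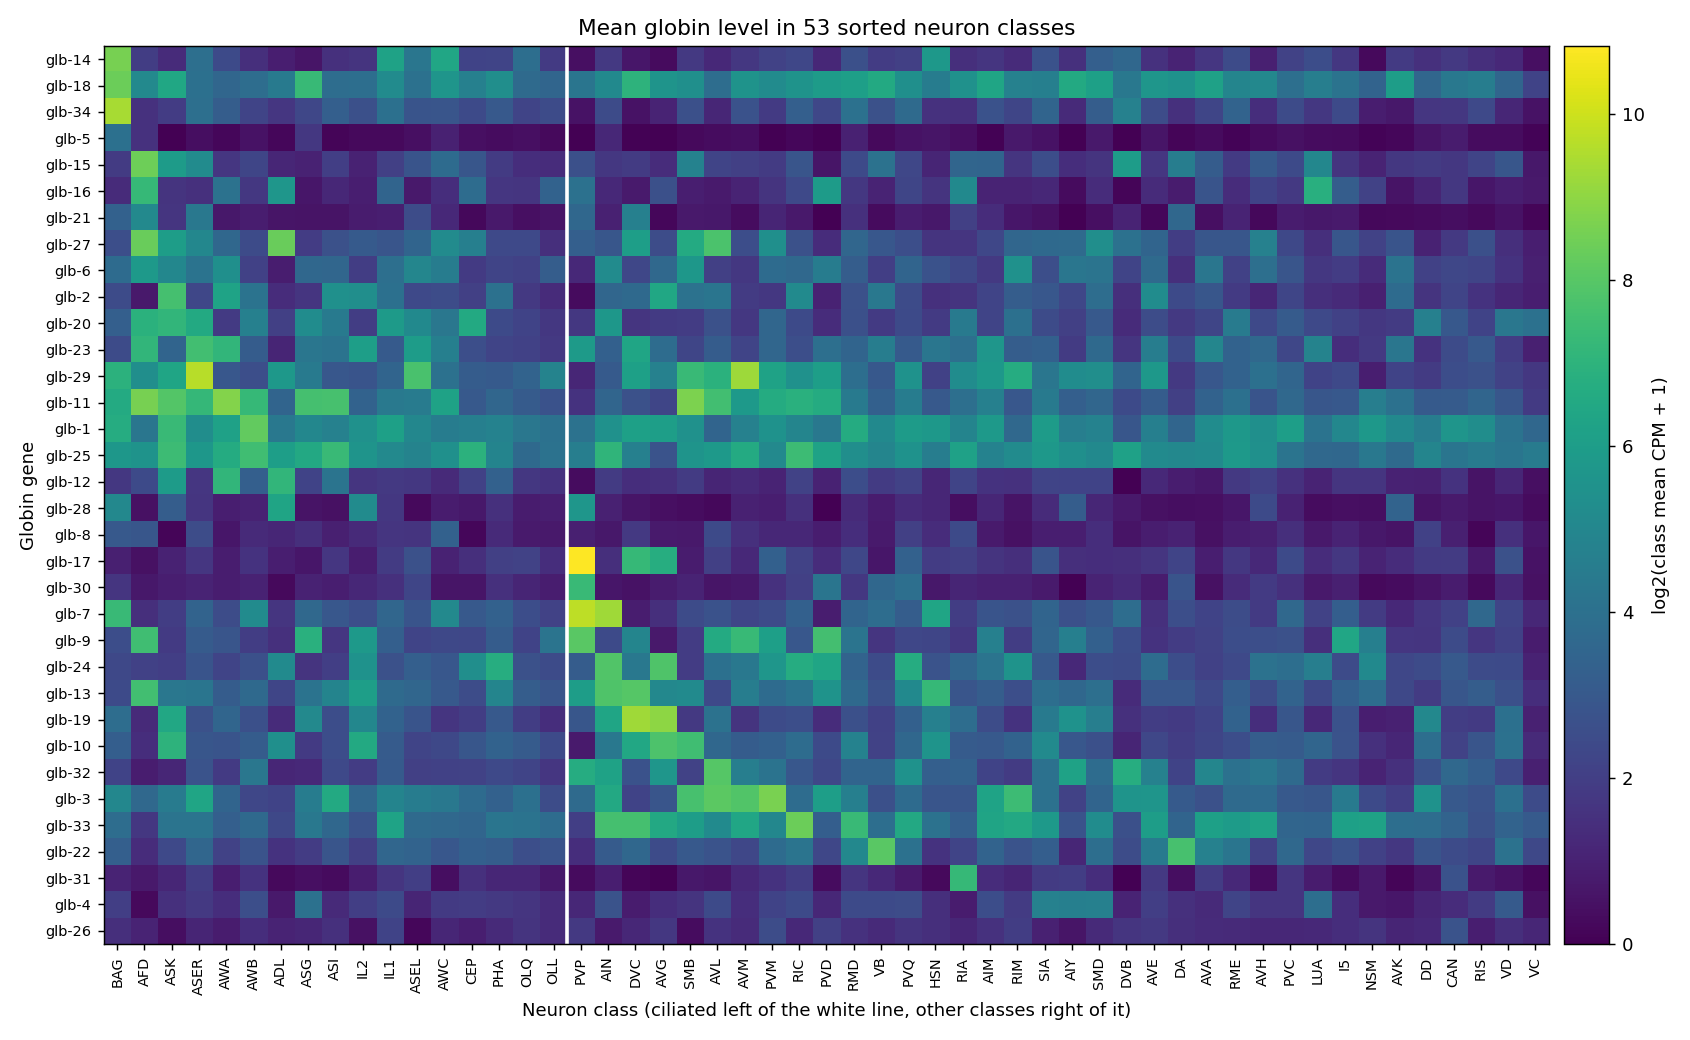
Mean level of each globin in each class, as log2(CPM + 1), with the 17 ciliated classes left of the white line and the 36 others right of it, both ordered by summed globin level. The brightest cell is glb-17 in PVP (1805 CPM), while glb-1, glb-18 and glb-25 form rows that stay bright across nearly all classes.

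In 8 globins (23.5%), all libraries of the highest class had more CPM than any library of the other 52 classes, with a class mean of at least 10 CPM. The same held for 8.09% of all genes tested. These 8 globins and their classes were glb-5, glb-14 and glb-34 in BAG, glb-17 and glb-30 in PVP, glb-15 in AFD, glb-31 in RIA and glb-32 in AVL. In the other 26 globins, libraries of the highest and the second class overlapped.

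**Figure D2:**
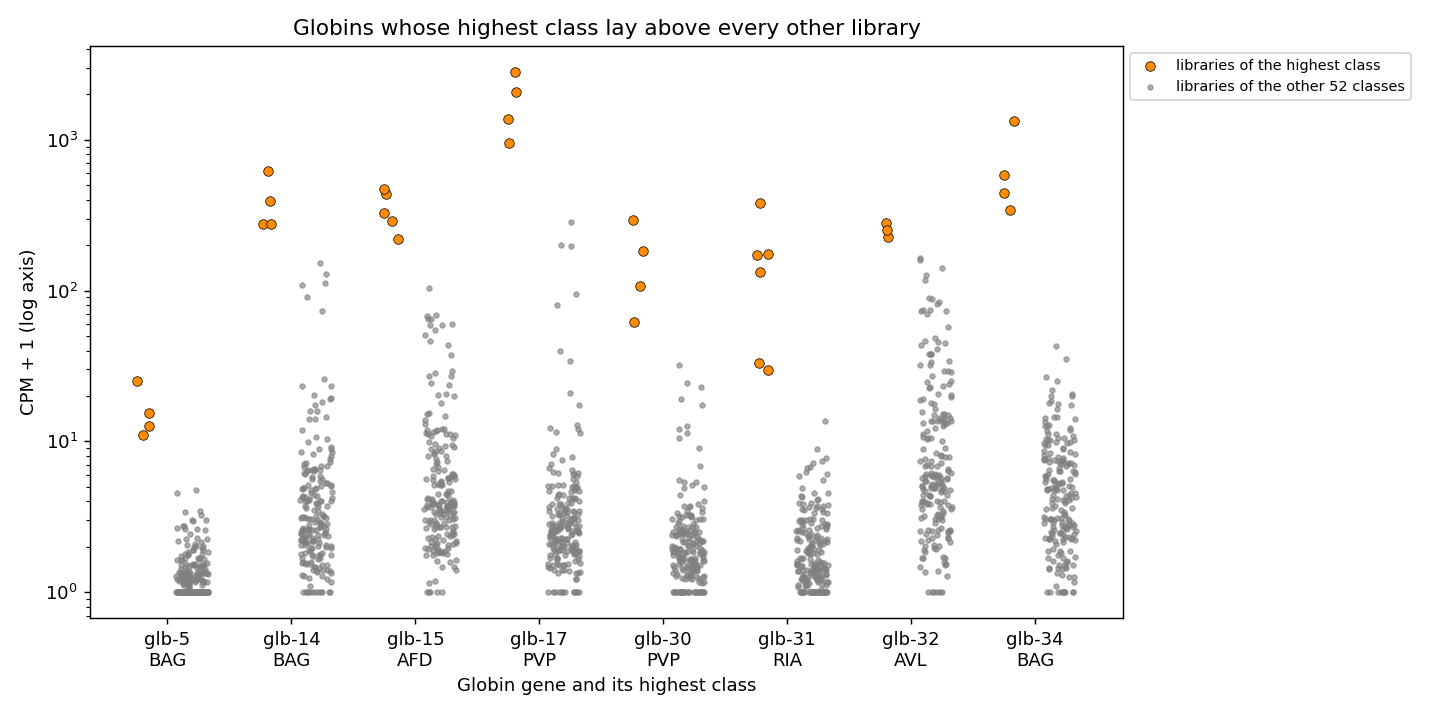
CPM + 1 on a log axis for the 8 globins whose highest class stood apart, with 1 point per library. Orange points are libraries of the highest class and grey points those of the other 52 classes. For glb-17 the lowest PVP library (954 CPM) lies above the highest other library, DVCr167 (283 CPM).

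BAG neurons, a pair of ciliated head neurons known for sensing falling oxygen and rising carbon dioxide, led with 4 globins. For glb-34 (WBGene00077763, chromosome IV, 14570158 to 14572707), the 4 BAG libraries had 342, 445, 586 and 1333 CPM. DVB was second, with 9.48, 25.8 and 42.1 CPM in its 3 libraries. BAG thus stood above all other libraries, with a mean of 676 ± 449 CPM (SD, n = 4). On the log2 scale of the fit, BAG exceeded the mean of the other classes by 7.58 ± 0.24 (SE, adjusted p = 5.37e-67).

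The level of glb-14 (WBGene00008996, chromosome V, 15543106 to 15544994) was 276, 276, 392 and 615 CPM in BAG. AWC, a class of olfactory neurons, came second with 18, 72.2, 111.5 and 128 CPM. The highest library outside BAG was HSNr238, at 151.2 CPM, while the other HSN libraries had 2.74 and 8.89 CPM. BAG exceeded the mean of the other classes by a log2 difference of 7.17 ± 0.24 (SE, adjusted p = 3.71e-64). This gene lies within the gene prde-1.

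In glb-5 (WBGene00015964, chromosome V, 5558890 to 5564263), the BAG libraries had 9.94, 11.7, 14.5 and 24.2 CPM. ASG followed with 1.64, 1.99, 2.26 and 3.78 CPM, and AFD with 0.505 to 3.54 CPM. Its level was low everywhere else, and 7 classes had no count, among them PVP and ASK. The log2 difference of BAG from the mean of the other classes was 6.07 ± 0.39 (SE, adjusted p = 9.77e-30), and it was 5.16 ± 0.52 (adjusted p = 4.41e-16) where all other libraries were taken as one group. The oxygen-sensing classes URX, AQR and PQR, where GLB-5 is also known to act, are not among the 53 classes. Exons of glb-5 overlap C18C4.12 on the opposite strand over 284 bases, and the gene lies within C18C4.7.

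The fourth globin led by BAG was glb-18 (WBGene00009917, chromosome I, 7339232 to 7345986), at 182.9, 227.2, 298 and 632 CPM. Here the classes overlapped, since the highest ASG library reached 267 CPM. BAG exceeded the mean of the other classes by 3.51 ± 0.26 on the log2 scale (SE, adjusted p = 2.89e-25).

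Counted over the family, 11 globins were higher in BAG than the mean of the other classes and none was lower, where 7.11% of all genes were called higher and 1.25% lower. The 11 were glb-1, glb-5, glb-7, glb-8, glb-11, glb-14, glb-18, glb-21, glb-28, glb-29 and glb-34. With all other libraries as one group, the 4 globins led by BAG stayed called, against 0.558% of all genes. Non-neuronal markers summed to 1283 to 1663 CPM in BAG, and the BAG markers gcy-31, gcy-33, gcy-9 and flp-17 were each highest in BAG.

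PVP, a pair of interneurons of the tail whose axons run along the ventral cord, had the highest single level of any globin. For glb-17 (WBGene00009887, chromosome X, 9573615 to 9577028), the PVP libraries had 954, 1376, 2073 and 2815 CPM. DVC had 33, 94.1, 200.6 and 283 CPM, and AVG had 38.5, 79.5 and 197.1 CPM. All other classes were under 10 CPM on average, down to 0.386 CPM in AFD. PVP exceeded the mean of the other classes by 9.64 ± 0.20 on the log2 scale (SE, adjusted p = 2.22e-93). Per kilobase of exon, glb-17 in PVP reached 1484 CPM per kb.

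Another globin set apart in PVP was glb-30 (WBGene00021259, chromosome III, 1665831 to 1668619), with 61.0, 106.1, 181.3 and 292 CPM. PVD, the second class, had 11.2 and 23.6 CPM, and the highest library outside PVP was PVQr233 at 31.3 CPM. The log2 difference was 7.25 ± 0.27 (SE, adjusted p = 1.16e-58). AIY had no count of glb-30 in any of its 3 libraries.

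PVP was also the highest class of glb-7 and glb-9. For glb-7, PVP had 338, 611, 1030 and 1466 CPM, and the interneuron class AIN had 361 to 1001 CPM in 6 libraries with a median of 600 CPM, so that these classes overlapped. In all, 10 globins were higher in PVP (15% of all genes were) and 10 were lower (5.88% of all genes). With all other libraries as one group, 6 were higher (2.84% of all genes) and none was lower (0.666%). The lower globins by the first test included glb-14, at 0.346 CPM, glb-34, at 0.450 CPM, and glb-10, at 0.708 CPM. PVP is among the 7 classes whose libraries have no description naming the kit, together with CEP, DVB, HSN, PVQ, RME and SIA. For each of these the class cannot be told apart from the set of labels it came with.

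AFD, the thermosensory neurons, were the highest class of 5 globins. For glb-15 (WBGene00009387, chromosome V, 11616805 to 11618273), the 5 AFD libraries had 218.4, 288.5, 327, 439 and 473 CPM. DVB had 53.8, 66.5 and 68.3 CPM, and the highest library outside AFD was ASKr49 at 103 CPM. The log2 difference of AFD from the mean of the other classes was 6.45 ± 0.21 (SE, adjusted p = 1.1e-67).

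The other globins led by AFD were glb-6, glb-16, glb-21 and glb-27, and each overlapped the next class. Of glb-6 (WBGene00015969, chromosome V, 5568184 to 5570533), AFD had 39.6, 47.5, 57.9, 63.1 and 77.8 CPM and the head motor neurons SMB had 11, 29.5, 47.6, 65.4 and 103 CPM. Its log2 difference was 3.08 ± 0.27 in AFD (SE, adjusted p = 5.54e-21) and 2.93 ± 0.27 in SMB (adjusted p = 7.85e-19). For glb-27, AFD had 286 to 420 CPM in 5 libraries and ADL had 99.0 to 673 CPM in 4, both with a mean of 325 CPM.

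AFD had both many high and many low globins: 13 were higher (21% of all genes) and 10 were lower (9.17% of all genes) than the mean of the other classes. With all other libraries as one group, 11 were higher (10.3% of all genes) and 4 were lower (5.45%). The 4 were glb-2, glb-4, glb-32 and glb-33.

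In RIA, interneurons of the head ring, glb-31 (WBGene00021972, chromosome II, 1300064 to 1301654) ran from 28.8 CPM to 381 CPM in 6 libraries with a median of 151.4 CPM. The libraries fell widely apart, with RIAr75 and RIAr76 at 32 and 28.8 CPM and the other 4 at 131.9 CPM or more. CAN was second with 1.27, 2.85 and 12.6 CPM, so that even the lowest RIA library lay above all others. The ratio of the highest to the second class mean, 27.5, was the largest of the family, where the median ratio was 1.35. The log2 difference of RIA was 7.67 ± 0.26 (SE, adjusted p = 7.91e-63), and glb-31 was the only globin called higher in RIA with all other libraries as one group (0.436% of all genes).

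AVL, a motor neuron of the defecation cycle, stood apart in glb-32 (WBGene00021980, chromosome V, 5087493 to 5089547), with 226.8, 250 and 281 CPM. DVB, which acts in the same cycle, was second with 69, 88.7 and 157.5 CPM, and PVP came next at 104.2 CPM on average. At the low end, AFD had 0.816 CPM and VC 0.910 CPM on average. The log2 difference was 5.21 ± 0.26 in AVL (SE, adjusted p = 3.32e-42) and 3.92 ± 0.32 in DVB (adjusted p = 1.72e-22).

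The 5 globins with the highest median over class means were glb-25 (35.8 CPM), glb-18 (32.3 CPM), glb-1 (31.3 CPM), glb-33 (16 CPM) and glb-29 (14.2 CPM). Of these, glb-25 and glb-1 had a mean of at least 10 CPM in 52 classes and glb-18 in 51. The counts of glb-1, glb-3 and glb-25 were above 0 in every library.

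GLB-1 is an oxygen-binding globin studied as a purified protein. Its gene glb-1 (WBGene00014030, chromosome III, 8922399 to 8923290) was highest in AWB, olfactory neurons for repellents, with 25.6, 279, 311, 334 and 524 CPM. AWBr51 was the low library, and the others lay above the 4 ASK libraries, which had 118.8, 139.2, 165.3 and 210 CPM. DVB had the lowest class mean, 6.42 CPM. The log2 difference from the mean of the other classes was 3.20 ± 0.29 in AWB (SE, adjusted p = 5.94e-20) and 2.28 ± 0.35 in ASK (adjusted p = 1.63e-08), and 6 classes were called higher and 5 lower.

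For glb-25 (WBGene00020279, chromosome V, 1938263 to 1953748), AWB was again highest, with 9.29, 67.9, 202.4, 301 and 308 CPM, and again AWBr51 was lowest. RIC and ASK followed with means of 169 and 168 CPM, and their ranges overlapped that of AWB. This globin had the flattest profile of the family by tau, at 0.293, where the median globin had 0.612. Tau is the average shortfall of the other classes from the highest, as a share of it, in log2(CPM + 1). The highest class mean of glb-25 was 1.05 times the second. Libraries of all 52 other classes reached the range of AWB, which AWBr51 extends down to 9.29 CPM.

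The octopamine neurons RIC led glb-33 (WBGene00022284, chromosome V, 1352126 to 1356594), with 180, 334, 357 and 460 CPM. DVC had 44.4, 133, 265 and 347 CPM and AIN 59.7 to 342 CPM in 6 libraries with a median of 196.3 CPM. AFD had the lowest mean, 2.41 CPM. RIC had a log2 difference of 3.96 ± 0.24 (SE, adjusted p = 1.25e-33), and 18 classes were called higher and 11 lower.

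ASER, the right neuron of a pair that tastes salt, led glb-29 (WBGene00012461, chromosome II, 12009072 to 12023832), with 339, 583, 890 and 1426 CPM. The touch neuron AVM had 467, 554 and 796 CPM, within the range of ASER, and ASEL had 135.3, 232.4 and 250 CPM. The log2 difference was 5.66 ± 0.23 in ASER (SE, adjusted p = 1.73e-53) and 5.23 ± 0.27 in AVM (adjusted p = 8.41e-42). The means ran down to 0.865 CPM in NSM.

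Of the globins studied before by others, glb-12 (WBGene00008256, chromosome II, 10729804 to 10731652) was highest in the ciliated classes ADL and AWA. ADL had 34.7, 53.8, 138.5 and 334 CPM, and AWA had 31, 115, 128.9 and 285 CPM. ASK followed with 36, 42.8, 43.9 and 117 CPM, and outside these classes only ASI reached a mean of 10 CPM. No count of glb-12 was found in the 3 DVB libraries. The log2 difference was 5.95 ± 0.28 in ADL (SE, adjusted p = 3.97e-46) and 5.95 ± 0.29 in AWA (adjusted p = 5.45e-45).

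GLB-13 has been linked to resistance to oxidative stress in the worm. Its gene glb-13 (WBGene00008957, chromosome X, 12374222 to 12378393) had 75.3, 214.1, 292 and 410 CPM in DVC, 129.1 to 345 CPM in 6 AIN libraries with a median of 246 CPM, and 92.7, 94.4, 144.9, 292 and 293 CPM in AFD. These classes overlapped. The log2 difference was 4.43 ± 0.24 in DVC (SE, adjusted p = 4.45e-39), 4.32 ± 0.21 in AIN (adjusted p = 4.22e-45) and 3.99 ± 0.23 in AFD (adjusted p = 4.51e-36).

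For glb-10 (WBGene00016215, chromosome II, 6308114 to 6309298), AVG was highest with 128.9, 161.7 and 366 CPM, and SMB followed with 22.3, 141.8, 165.8, 216.4 and 364 CPM. ASK had 94.3, 97, 139.2 and 169 CPM. All of these overlapped. PVP had the lowest mean, 0.708 CPM. AVG had a log2 difference of 4.79 ± 0.34 (SE, adjusted p = 1.14e-27).

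The remaining 17 globins were highest in 13 different classes, and in each of them libraries of the highest and the second class overlapped. In DVC, glb-19 had 105.8, 354, 965 and 1040 CPM, and in AVG 221.2, 483 and 797 CPM. The motor neuron classes VB and DA led glb-22, with 55.1, 213.9, 337 and 464 CPM in VB and 37.6, 146.1, 236 and 382 CPM in DA. The log2 difference of glb-22 was 5.34 ± 0.22 in VB (SE, adjusted p = 7.08e-51) and 4.91 ± 0.23 in DA (adjusted p = 4.07e-45), and RMD came next with a mean of 31.8 CPM.

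Among chemosensory classes, ASK led glb-2 (198.6 ± 93.4 CPM, SD, n = 4) and glb-20 (138.6 ± 75.5 CPM), AWA led glb-11 (445 ± 368 CPM, n = 4), ADL led glb-28 (78.3 ± 52.4 CPM, n = 4), ASER led glb-23 (185.3 ± 103 CPM, n = 4) and AWC led glb-8 (9.40 ± 6.33 CPM, n = 4). The level of glb-11 was close to this in SMB (416 ± 160 CPM, n = 5) and AFD (382 ± 120 CPM, n = 5). For glb-23, AFDr35 at 326.4 CPM lay above every ASER library, the highest of which had 284.0 CPM. For glb-8, RIAr71 at 22.04 CPM lay above every AWC library, the highest of which had 17.42 CPM. AIN led glb-24 at 238 ± 121.9 CPM (SD, n = 6), with AVG at 91.2 to 353.5 CPM in 3 libraries. PVP led glb-9 at 262 ± 139.2 CPM (n = 4), with PVD at 192.5 ± 92.6 CPM (n = 2).

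The touch neuron PVM led glb-3, with 184.1 and 618 CPM, and AVL and AVM followed at 269 ± 37.8 and 237 ± 55.1 CPM (SD, n = 3 each). AFD led glb-16, at 28.3 to 304 CPM in 5 libraries with a median of 142.3 CPM, and glb-21 at 33.5 ± 25.3 CPM (SD, n = 5). SIA led glb-4 with 3.95, 5.5, 9.55 and 84.6 CPM, a mean that rests on SIAr243, while the 4 SMD libraries had 11.8, 20.4, 30.4 and 38.9 CPM. The weakest globins were glb-8 and glb-26, whose highest class means stayed under 10 CPM. CAN led glb-26 with 3.62, 6.37 and 7.70 CPM. The limit for a count of 0 was 0.502 to 0.764 CPM in the CAN libraries and 6.37 CPM in AIYr67, the shallowest library.

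ADL and ASK are chemosensory classes of the head, and each was the highest class of 2 globins. In ADL, 7 globins were higher than the mean of the other classes (19.2% of all genes) and 16 were lower (3.27% of all genes), while with all other libraries as one group 3 were higher (7.37% of all genes) and 1, glb-6, was lower (0.392%). The level of glb-6 was 0.800 CPM on average in ADL, the lowest of all classes. In ASK, 15 globins were higher (18.8% of all genes) and 4 were lower (8.01%), and with all other libraries as one group glb-1, glb-2, glb-10, glb-12, glb-20 and glb-25 were higher (7.44% of all genes). The difference between these classes was not tested.

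Summed over the family per kilobase of exon, PVP, BAG and AFD had the most globin RNA. PVP reached 3143 ± 1486 CPM per kb (SD, n = 4), BAG 2340 ± 1040 CPM per kb (n = 4) and AFD 1873 ± 223.2 CPM per kb (n = 5), where the median class had 509.8 CPM per kb. Their ranges overlapped, at 1465 to 4487, 1563 to 3873 and 1579 to 2185 CPM per kb. Classes below them overlapped these ranges too, among them AIN (917 to 2488 CPM per kb), ASK (997 to 2177) and DVC (618 to 2261). One globin made up much of the sum in PVP, where glb-17 gave 47.2%, and in BAG, where glb-34 gave 37.5%, but less in AFD, where glb-15 gave 22.2%. Over all classes, the leading globin gave 10.7% to 51.6% of the sum with a median of 24.1%, and glb-1 was the leading globin in 20 classes.

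**Figure D3:**
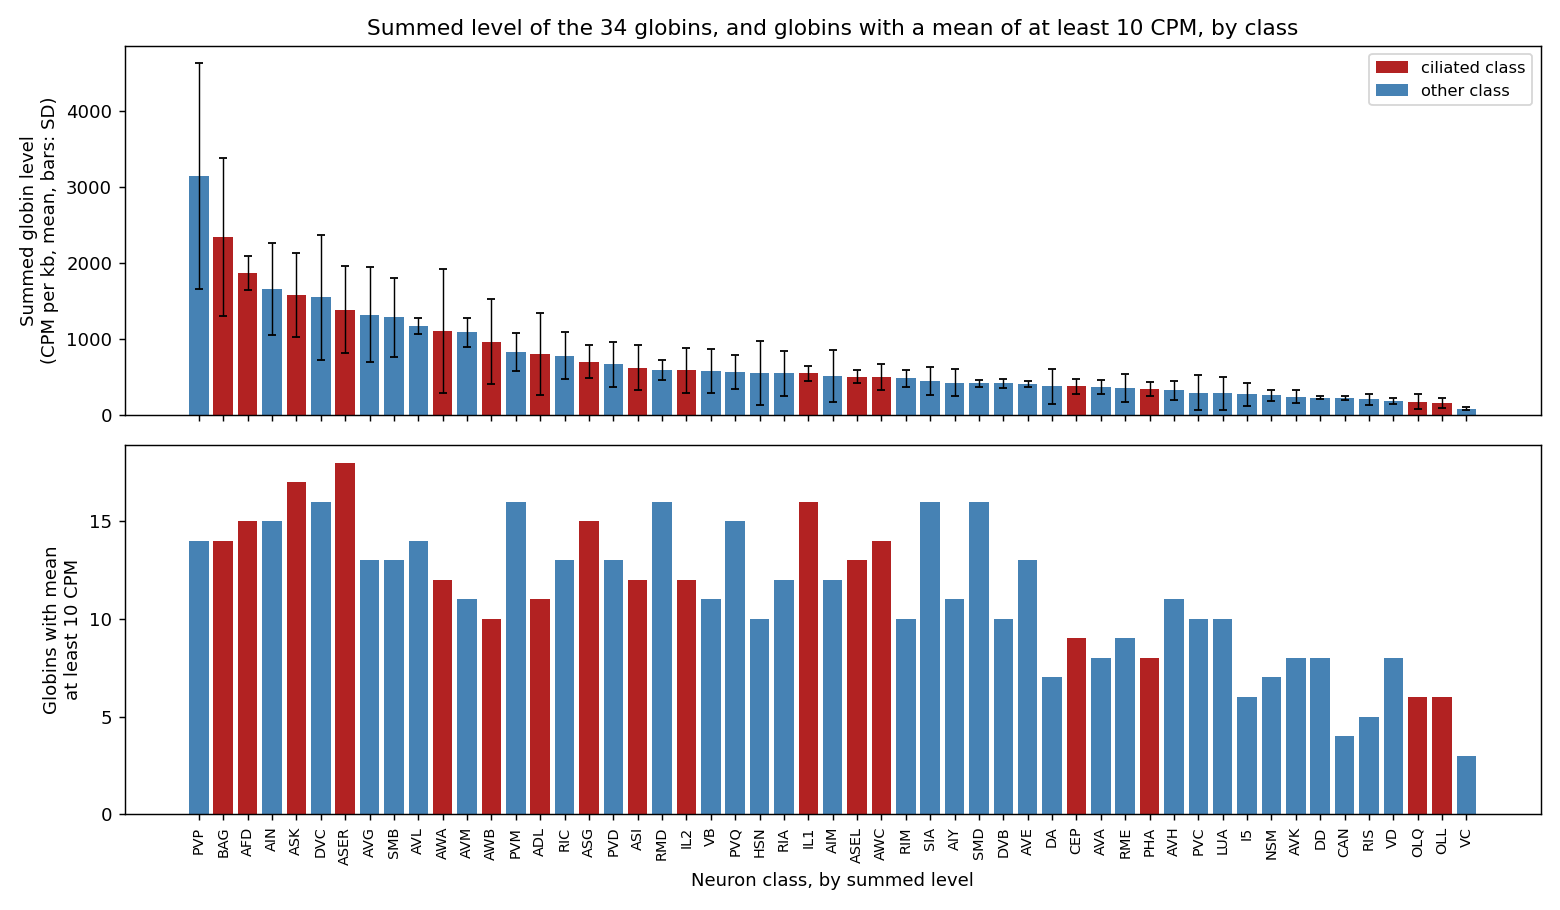
Summed level of the 34 globins per class in CPM per kb of exon (upper panel, mean with SD over libraries) and the number of globins with a mean of at least 10 CPM (lower panel), with ciliated classes in red and others in blue. The sums run from 3143 in PVP to 80.2 in VC, and the number of globins from 18 in ASER to 3 in VC.

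VC, motor neurons of the egg-laying circuit, had the smallest sum, 80.2 ± 17.7 CPM per kb (SD, n = 6), which was 0.16 times the median class. Only 3 globins had a mean of at least 10 CPM there. Against the mean of the other classes, 23 globins were lower in VC (9.95% of all genes) and only glb-20 was higher (20.3%). With all other libraries as one group, 27 were lower (12.7% of all genes) and none was higher (10.3%). Pan-neuronal genes summed to a median of 1685 CPM in VC, where the median class had 4759 CPM, and the part of this lower neuronal signal in the globin values was not tested.

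Counted over all 1802 pairs of a globin and a class, 351 (19.5%) were higher than the mean of the other classes and 12% were lower. Over all genes tested, 11.4% of such pairs were higher and 3.05% lower. Because this test averages the other classes on a log scale, classes with hardly any count lower the mean that a class is set against. For the 6 globins with no count at all in at least 1 class (glb-5, glb-12, glb-21, glb-28, glb-30 and glb-31), the size of this log2 difference also depends on the prior count of the fit. With all other libraries as one group, a test that counts strong classes in full, 70 pairs (3.88%) were higher and 32 (1.78%) lower, against 2.08% and 0.634% over all genes. The highest class was called higher for all 34 globins by the first test and for 33 by the second, the exception being glb-26. This class was picked by its mean in the same libraries, so these calls were nearly fixed in advance and give no separate support. The share of all genes called in their own highest class is not given here.

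Ciliated sensory neurons were compared with the other classes next. In 17 ciliated classes (65 libraries) against 36 other classes (140 libraries), 15 globins were higher and 6 were lower. The fit holds a mean for each class, so its SE and p-values measure the spread of libraries within classes, not the spread between classes. They therefore concern these classes and not ciliated neurons as a type. Class means overlapped widely, as in glb-29, at 5.13 to 809 CPM in ciliated and 0.865 to 606 CPM in other classes. These were 44.1% and 17.6% of the globins, where 12.3% and 12.1% of all genes tested were called. The median log2 difference of ciliated from other classes was 0.38 over the globins and -0.05 over all genes, and 67.6% of the globins and 44.3% of all genes had a positive difference.

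The largest rise was that of glb-12, by 2.02 ± 0.19 on the log2 scale (SE, adjusted p = 1.52e-18), with a mean over class means of 23.7 CPM in ciliated classes and 1.95 CPM in the others. Here 4 classes carried most of the ciliated mean, since the median class had 3.22 CPM in ciliated and 1.91 CPM in other classes. In glb-11 and glb-20 the rise was broader. The median class of glb-11 had 75.3 CPM in ciliated and 10 CPM in other classes (log2 difference 1.82 ± 0.13, adjusted p = 7.39e-27). For glb-20, it had 20.6 CPM in ciliated and 4.23 CPM in other classes (1.75 ± 0.12, adjusted p = 4.61e-29).

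Further globins higher in ciliated classes were glb-14, glb-28, glb-34, glb-21, glb-27, glb-16, glb-2, glb-23, glb-25, glb-29, glb-6 and glb-7, with log2 differences from 1.5 down to 0.42. For glb-14 and glb-34, the mean over ciliated classes rests largely on BAG: their median classes had 3.56 and 5.31 CPM in ciliated and 2.30 and 3.78 CPM in other classes. Median classes also lay close for glb-2, at 4.54 CPM in ciliated and 3.75 CPM in other classes, and glb-16 (2.19 and 1.55 CPM). The same held for glb-21 (0.767 and 0.588 CPM), glb-23 (10.2 and 8.96 CPM) and glb-27 (7.37 and 6.16 CPM). It held too for glb-28 (0.865 and 0.632 CPM) and glb-29 (15.6 and 12.4 CPM). Medians lay further apart for glb-6 (11.3 and 4.55 CPM) and glb-25 (51.85 and 33.5 CPM). In glb-7 the arithmetic means ran the other way, at 18.5 CPM in ciliated and 48.4 CPM in other classes, with PVP and AIN among the others, and its call was lost with limma-voom (adjusted p = 0.0637).

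The globins lower in ciliated classes were glb-32, glb-33, glb-17, glb-22, glb-24 and glb-26. The median class of glb-32 had 3.32 CPM in ciliated and 10.4 CPM in other classes (log2 difference -1.83 ± 0.16, adjusted p = 3.21e-20), and that of glb-33 had 12.5 CPM in ciliated and 36.5 CPM in other classes (-1.33 ± 0.13, adjusted p = 7.18e-17). Median classes lay close for glb-22, at 5.89 CPM in ciliated and 5.92 CPM in other classes, glb-17 (1.69 and 2.26 CPM) and glb-26 (1.22 and 1.51 CPM). For glb-24 they were 5.35 and 8.83 CPM. The call of glb-26 was lost with median-of-ratios scaling (adjusted p = 0.0731) and with limma-voom (0.0618).

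For glb-5 and glb-30, classes without a count left the edgeR contrast without a usable standard error. By limma-voom, glb-5 was higher in ciliated classes by 0.72 (adjusted p = 4.79e-04), and glb-30 was not called (-0.22, adjusted p = 0.421). Non-neuronal marker sums were also lower in ciliated classes, with a median class of 2860 CPM against 4238 CPM in the others, and their part in these differences was not tested.

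**Figure D4:**
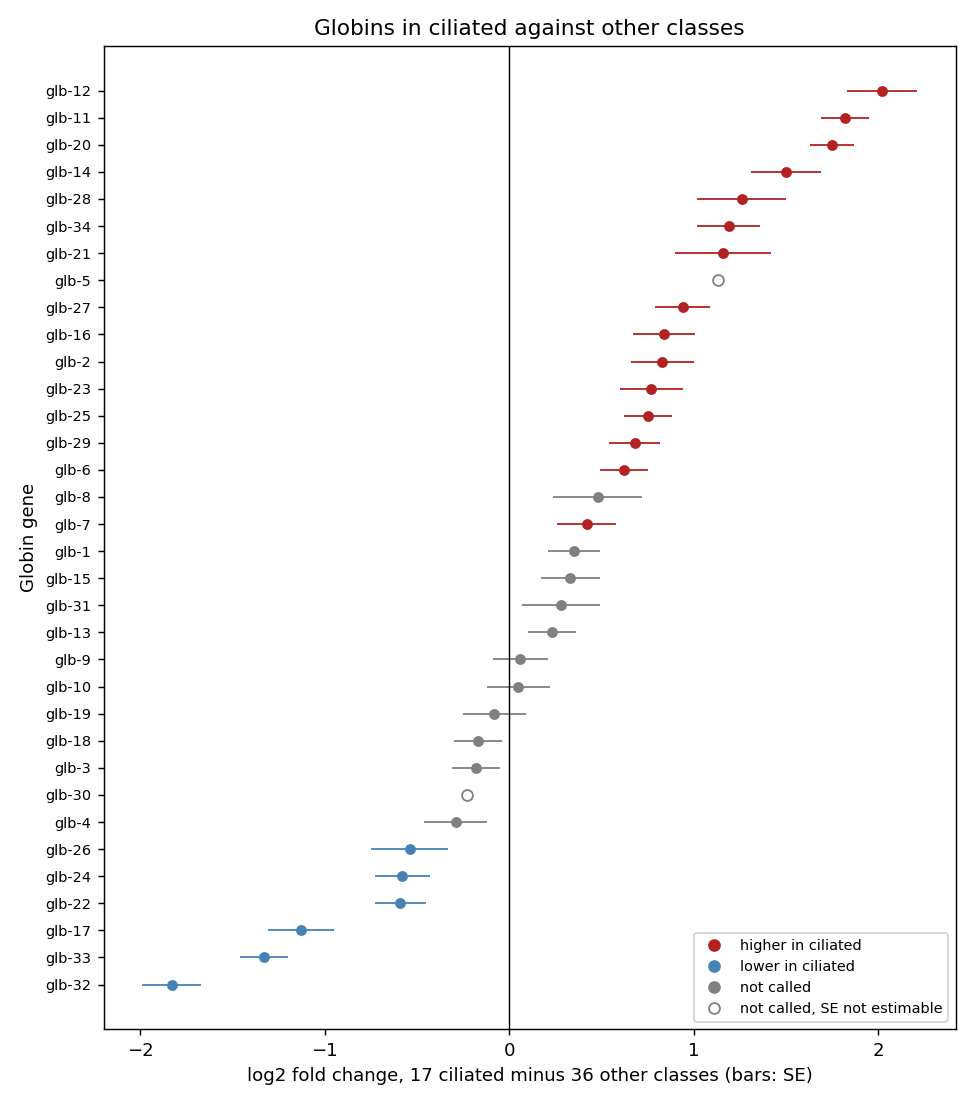
Log2 difference of the 17 ciliated classes from the 36 other classes for each globin, with SE bars from the edgeR fit. Red globins were called higher in ciliated classes (15), blue ones lower (6), and the open circles of glb-5 and glb-30 have no usable standard error.

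ASEL and ASER are the left and right neurons of the salt-tasting pair ASE. Of 26 globins tested between them, glb-6 was higher in ASEL (5.24% of all genes) and 5 were lower (6.07% of all genes). The strongest difference was in glb-11, with 16.1 to 27.2 CPM in 3 ASEL libraries and 62.5 to 190 CPM in 4 ASER libraries, which did not overlap (log2 difference -2.50 ± 0.37, adjusted p = 5.68e-04). The others lower in ASEL, also without overlap, were glb-3, glb-15, glb-20 and glb-29. Of all genes called between these classes 91.6% did not overlap. Of all genes tested 22.4% did not, close to the 23.1% of the globins tested. For glb-29, ASEL had 205.9 ± 61.8 CPM (SD, n = 3) and ASER 809 ± 469 CPM (n = 4), a log2 difference of -1.73 ± 0.42 (adjusted p = 0.0154).

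Single libraries moved this count. ASELr149, ASERr144 and ASERr147 had over 60% ribosomal RNA, and without them 10 globins were called in place of 6. Without ASELr150 or without ASELr151, 3 were called. A fit of all classes, which shares their spread, left 1 call, glb-11 (adjusted p = 0.0309).

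AWB and AWC are olfactory neurons, AWB for repellents and AWC for attractants. Of 22 globins tested, 2 were higher in AWB (7.46% of all genes) and 8 were lower (10.5% of all genes). The higher globins were glb-1, with 295 ± 178.1 CPM in AWB (SD, n = 5) and 22.1 ± 11 CPM in AWC (n = 4; log2 difference 3.81 ± 0.72, adjusted p = 0.0037), and glb-32, with 18.7 ± 15.2 CPM in AWB and 3.32 ± 1.53 CPM in AWC (2.59 ± 0.82, adjusted p = 0.0476). Libraries overlapped for both.

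The 8 globins lower in AWB were glb-3, glb-6, glb-8, glb-14, glb-15, glb-18, glb-23 and glb-27. The largest fall was in glb-14, with 0.581 to 3.85 CPM in AWB and 18 to 128 CPM in AWC (log2 difference -5.36 ± 0.62, adjusted p = 5.13e-04). For glb-27, AWB had 1.16 to 7.39 CPM and AWC 8.58 to 53.2 CPM (-2.80 ± 0.55, adjusted p = 0.00442). The count of 10 calls fell to 4 without AWBr52 and AWBr54, which had over 60% ribosomal RNA. Leaving out AWBr52 or AWBr54 alone gave 6 calls, and leaving out AWCr156 or AWCr157 gave 5. A fit of all classes lost the calls of glb-15 (adjusted p = 0.0661) and glb-23 (0.137) and added glb-25 (0.00908).

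SMB and SMD are classes of motor neurons that steer the head. Of 25 globins tested, 5 were higher in SMB (6.96% of all genes) and 7 were lower (4.87% of all genes), and none of these 12 overlapped between the classes. Among all genes called between SMB and SMD 73.9% did not overlap, and among all genes tested 12.1%, while 13 of the 25 globins (52%) did not. In glb-11, SMB had 157.1 to 553 CPM and SMD 4.26 to 23.7 CPM (log2 difference 5.24 ± 0.65, adjusted p = 1.99e-04). In glb-10, SMB had 22.3 to 364 CPM and SMD 1.71 to 11.8 CPM (5.10 ± 0.82, adjusted p = 0.00135). In glb-3, SMB had 60.6 to 266 CPM and SMD 3.93 to 23.8 CPM (4.31 ± 0.66, adjusted p = 0.00101).

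The other globins higher in SMB were glb-15 and glb-29. Lower in SMB were glb-4, glb-9, glb-14, glb-19, glb-20, glb-23 and glb-32. In a fit of all classes, glb-9 (adjusted p = 0.11), glb-14 (0.144), glb-20 (0.138) and glb-23 (0.204) lost their calls. Of glb-4, SMB had 0.757 to 3.55 CPM and SMD 11.8 to 38.9 CPM (log2 difference -3.46 ± 0.45, adjusted p = 2.82e-04). Of glb-19, SMB had 0.507 to 4.78 CPM and SMD 10.8 to 35.8 CPM (-3.19 ± 0.49, adjusted p = 0.00107).

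**Figure D5:**
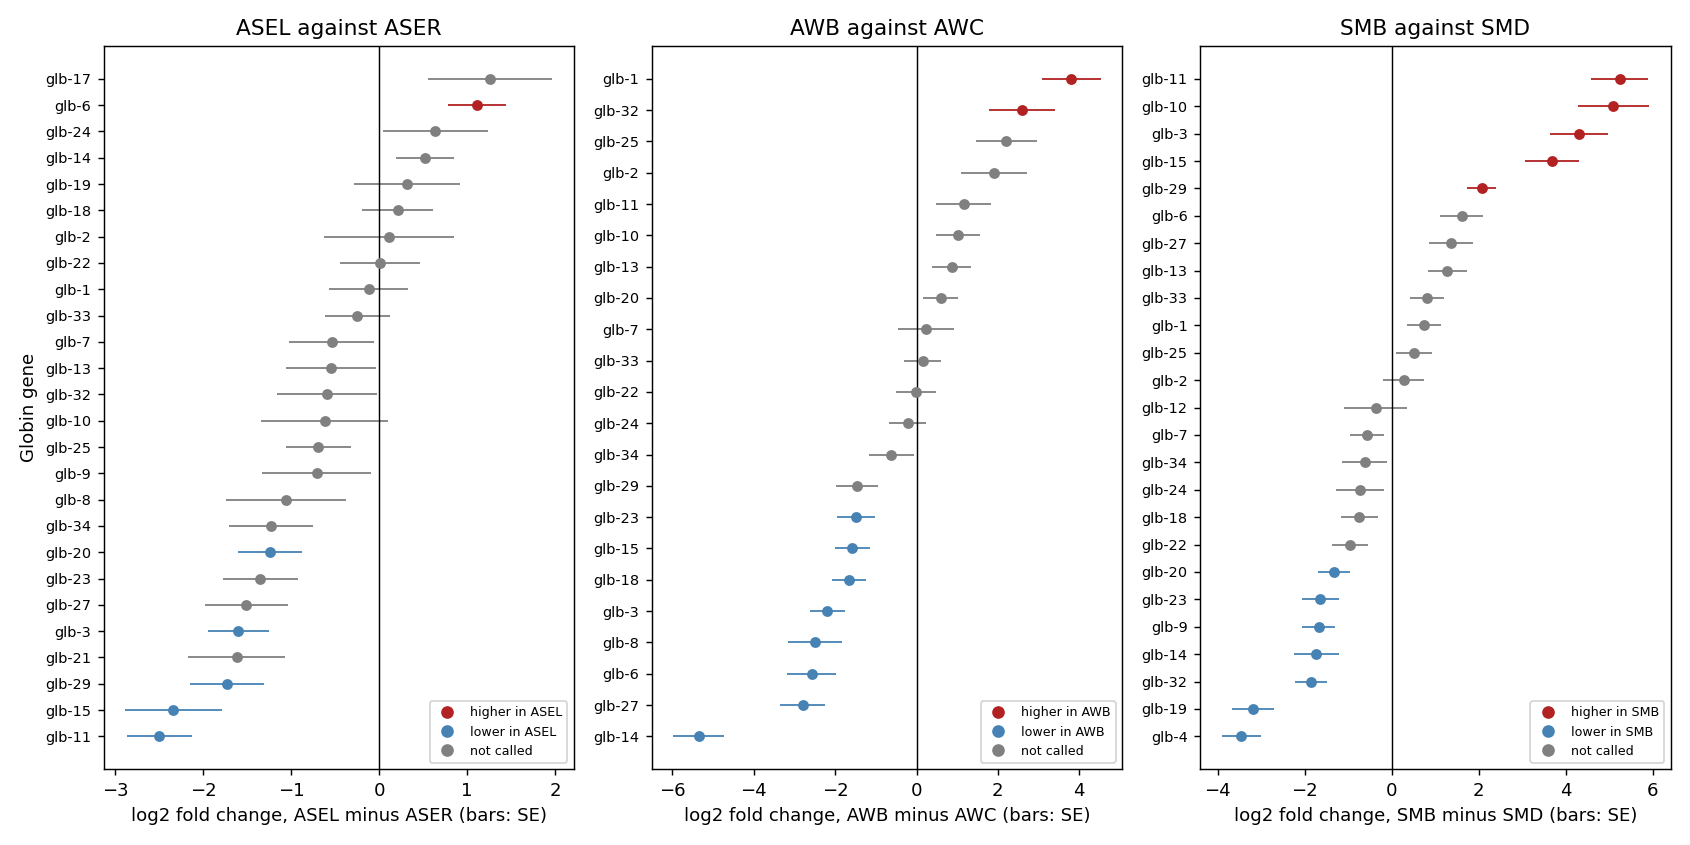
Log2 difference with SE bars for each globin tested in the pairs ASEL against ASER (26 globins), AWB against AWC (22) and SMB against SMD (25). Red globins were called higher and blue ones lower in the class named first, and the calls number 1 and 5, 2 and 8, and 5 and 7.

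Genes of oxygen sensing, hypoxia, heme handling and defence against superoxide and peroxide were counted beside the globins. Of 45 listed genes, all tested, 9 (20%) were higher in BAG and 2 (4.44%) lower, where 7.11% and 1.25% of all genes were. With all other libraries as one group, 4 of these 11 stayed called, gcy-31, gcy-33, gcy-9 and gcy-37. The 3 with the largest log2 difference in BAG were the guanylyl cyclases gcy-31 (6.56 ± 0.26, adjusted p = 2.72e-53), gcy-9 (6.53 ± 0.28, adjusted p = 1.87e-49) and gcy-33 (5.48 ± 0.28, adjusted p = 9.17e-41). These encode a carbon dioxide receptor, gcy-9, and soluble cyclases tied to oxygen sensing, gcy-31 and gcy-33, all of which served as BAG markers. The 3 lowest differences were those of hrg-6, hrg-5 and nhr-57. In BAG, hrg-5 and hrg-6 had no count and no usable standard error, while nhr-57, a target of the hypoxia factor HIF-1, had 0.774 CPM, against a median of 5.33 CPM over the other classes (-2.78 ± 0.84, adjusted p = 0.019, and 0.291 with all other libraries as one group).

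Of the hypoxia list, hif-1 itself had 1557 ± 223.5 CPM in BAG (SD, n = 4), against a median class mean of 420 CPM in the others (log2 difference 1.87 ± 0.26, adjusted p = 1.02e-09), a call that was lost with all other libraries as one group (adjusted p = 0.0664). None of the 11 heme genes was higher in BAG, and hrg-1, a heme transporter, was lower, though not with all other libraries as one group (adjusted p = 0.268). In ciliated classes, 10 of the 45 genes (22.2%) were higher and 4 (8.89%) lower, where 12.3% and 12.1% of all genes were. The largest were the channel subunits tax-4 (3.80 ± 0.20) and tax-2 (3.10 ± 0.21) and the cyclase gcy-9 (1.88 ± 0.21), and the lowest were sod-3 (-0.85 ± 0.15) and gcy-34 (-0.55 ± 0.18), with ctl-1 (-0.41) without a usable standard error. The median log2 difference of the list was -0.01 in ciliated classes, against -0.05 over all genes, and -0.14 in BAG, against -0.24 over all genes.

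Class patterns were compared as Pearson's r of log2(class mean CPM + 1) over the 53 classes, which share libraries, so that r is only a description. Among the 561 pairs of globins the median r was 0.083, with 12 pairs over 0.5. The most alike were glb-14 and glb-34 (r = 0.712), glb-5 and glb-34 (0.626) and glb-10 and glb-19 (0.615). The neighbours glb-5 and glb-6 on chromosome V had different highest classes, BAG and AFD.

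The 3 genes most like glb-5 were F19G12.11 (r = 0.843) and the annotated piRNAs 21ur-15412 and 21ur-11286 (0.802 each). The highest class mean of F19G12.11 was 4.66 CPM, in BAG. Both piRNA genes lie on chromosome IV, at 17193514 to 17193534 and 17192999 to 17193019, with 229 and 308 CPM in BAG. Whether their reads come from the piRNAs or from another transcript there was not tested. Most like glb-17 were T12D8.11 (0.83), W07A12.8 (0.750) and C04C11.21 (0.737). T12D8.11 and W07A12.8 were highest in AVG, at 16.26 and 47.65 CPM, with 14.46 and 45.01 CPM in PVP. C04C11.21 was highest in PVP, at 8.13 CPM. For glb-7 the most alike were C23H5.13 (0.745), srx-2 (0.670), a chemoreceptor gene highest in AIN, and npr-17 (0.636), a neuropeptide receptor gene highest in PVP. C23H5.13 is a non-coding RNA that starts beyond the end of glb-7 on chromosome IV. Its highest class mean was 2.74 CPM, in AIN.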

How the data were processed

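RNA of sorted neurons was measured by sequencing in 205 libraries of 53 classes, built with a Tecan SoLo Ovation kit per the labels' protocols. The file deposited by the authors is a gene table of unscaled read counts in whole numbers. The submitters' processing notes name STAR 2.7.7a, UMI-tools 1.1.4, Subread 2.0.3 and featureCounts, and the table's name carries the WormBase annotation release WS289. How strand and reads of several places were treated, and the genome build, are not given in the sources used here. Coordinates are those of the table, and all 34 globins have the same start and end in the Ensembl annotation of WBcel235, from which symbols and biotypes were taken. Another 14 per-sample columns match no library and were not used.

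Counts were analysed with edgeR 4.0.16 in R 4.3.3 (TMM scaling, filterByExpr by class, trended dispersion without gene-wise values, glmQLFit and glmQLFTest, Benjamini-Hochberg adjustment over all genes tested, threshold 0.05). Tests covered any difference among classes, each class against the unweighted mean of the other 52, ciliated against other classes, and 3 pairs fitted on their own libraries. SE is the log2 difference divided by the root of F. Alternatives used median-of-ratios scaling, limma-voom (limma 3.58.1), DESeq2 1.42.0, other filters, library sets and groupings, and leaving libraries out. The tests were tested on simulated counts. Of 317 pairs of libraries within classes, none was identical and chi-square per degree of freedom was at least 5.107, so all were kept. Limits from a count of 3 cover counting error only.

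The members, gene lists and tests were chosen with earlier results of these data known. Described in full are globins with a class set apart from all other libraries at 10 CPM or more, the 5 with the highest median class, and glb-1, glb-5, glb-6, glb-10, glb-12, glb-13 and glb-33; the other 17 are given in short.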

Additional observations from a re-analysis of the deposited data

Results flagged for a closer look

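One value lay apart from its group. In SIA, glb-4 had 84.6 CPM in SIAr243 and 3.95, 5.5 and 9.55 CPM in the other 3 libraries, a gap past Dixon's critical value for 4 samples. Of 30 groups of 4 to 10 libraries tested, this was the only one. Chance gives about 1 in 20 groups, so 1 outlier among 30 groups is no more than chance gives. SIA is the highest class of glb-4 through this library, and SMD, at 25.4 ± 11.8 CPM (SD, n = 4), is the highest class without it.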

How the results depend on the processing

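The counts of globins that differ among classes (33 to 34), that were higher in ciliated classes (13 to 18) or lower in them (4 to 6), and that differ between SMB and SMD (8 to 16) stayed within 1.5 times the reported count under every alternative run. The log2 difference of ciliated from other classes changed sign for no called globin with median-of-ratios scaling, with limma-voom or in the libraries whose description names the kit, but did for glb-9 (0.06, and -0.03 with limma-voom), glb-19 (-0.08, and 0.07 with limma-voom and 0.05 in those libraries) and glb-30 (-0.23, and 0.13 in those libraries), and those of glb-10 (0.05) and glb-31 (0.28) came to 0 there, all of them not called. Of all pairs of a globin and a class, 3.88% were higher and 1.78% lower with all other libraries as one group, and the share of lower pairs ran from 6.27% to 9.88% when 1 library of each class was left out in limma-voom, where all libraries gave 10.3%. Between ASEL and ASER, 1 globin was called in a fit of all classes, 10 without the libraries of over 60% ribosomal RNA, and 3 to 9 with 1 library left out. Between AWB and AWC, 4 were called without such libraries, an alternative chosen after seeing the data, and 5 to 13 with 1 library left out. The cause was not tested beyond the smaller number of libraries. The edgeR fit without a filter was not run for the class contrasts; limma-voom without a filter gave 17.8% higher and 11.1% lower pairs, also chosen after seeing the data. The highest class changed for 5 globins with median-of-ratios scaling (glb-4, glb-12, glb-13, glb-19 and glb-24), for 4 with ribosomal RNA genes removed, for 7 with medians over libraries and for 14 when 1 library was left out, all of them globins whose first classes overlapped. Levels of 8 globins moved by over 1 SD with ribosomal RNA genes removed, and that of 1 did with median-of-ratios scaling. No paired analysis was possible because the library numbers are not shared between classes. Depth limits the weak globins: the median class mean of glb-5, 0.273 CPM, lies under the 0.643 CPM that 3 counts give in the median library, and those of glb-21, glb-28, glb-31 and glb-8 run from 0.629 to 0.956 CPM.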
